A study of Mus musculus with 16 samples.

Results

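The 27 genes described here encode the enzymes that make cholesterol from acetyl-CoA, the proteins that sense sterols and control the transcription factor SREBP2, and proteins that take up, carry and store cholesterol. They were chosen by gene name from a list of the pathway, and all 27 were found among the 30214 gene names on a mouse expression array. Each of the 27 passed the filter on dim probes and was tested, among 19376 genes in all. The cells were AML12, a non-tumoral mouse hepatocyte line. They carried a doxycycline-inducible lentiviral shRNA and had been selected with puromycin. The shRNA was either a scramble sequence or, according to the study's methods, directed against eIF6, a translation initiation factor that keeps the large ribosomal subunit from joining too early. Extracts were spread on a sucrose gradient, and RNA was pooled from its polysomal part, where mRNAs carry several ribosomes, or from its subpolysomal part, where they carry none or few. This gave 4 groups of 4 arrays: scramble subpolysomal, eIF6 shRNA subpolysomal, scramble polysomal and eIF6 shRNA polysomal RNA. All 4 groups had received doxycycline for 48 h and insulin for 1 h, so no array gives unstimulated cells or cells without a lentivirus. The insulin concentration is given as 100 nM in a sample description and in millimolar units in the protocol text. The methods call the 4 samples of a group biological replicates. In RNA pooled from many cells, fewer cells of a type and less RNA per cell cannot be told apart.

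Cholesterol synthesis runs from acetyl-CoA through mevalonate and the isoprenoid farnesyl diphosphate to squalene, and from squalene through lanosterol to cholesterol. SREBP2, encoded by Srebf2, is made as a precursor in the endoplasmic reticulum, where the escort protein SCAP binds it. When sterols are plentiful, the INSIG proteins hold SCAP in that membrane. When sterols are scarce, SCAP carries SREBP2 to the Golgi, proteases release its active part, and this part enters the nucleus and raises the transcription of synthesis and uptake genes together with NF-Y, a factor that binds the letters CCAAT. Hepatocytes use the pathway to supply membranes, lipoproteins and bile acids. SREBP2 is known to act on synthesis and uptake genes through their promoters, so the 150 bases before the start of transcription are shown for the 6 members whose signal passed the test between the shRNAs (Mvd, Tm7sf2, Nsdhl, Pmvk, Fdps and Npc2), except Fdps, which is not matched in the promoter table, and for Hmgcs1, the member that holds the letters of a sterol regulatory element. The sequences are from RefSeq (GRCm38.p6), 5′ to 3′ on the strand of the gene. Pmvk has 2 promoters listed, and the one farthest upstream is shown. Capitals mark TCACNCCAC, the sterol regulatory element letters searched, and CCAAT or its reverse complement. They lie at chr13:119690201-119690350 on the plus strand for Hmgcs1, chr8:122443423-122443572 on the minus strand for Mvd, chr3:89454391-89454540 on the plus strand for Pmvk, chr19:6067851-6068000 on the minus strand for Tm7sf2, chrX:72918371-72918520 on the plus strand for Nsdhl and chr12:84773113-84773262 on the minus strand for Npc2.
Hmgcs1: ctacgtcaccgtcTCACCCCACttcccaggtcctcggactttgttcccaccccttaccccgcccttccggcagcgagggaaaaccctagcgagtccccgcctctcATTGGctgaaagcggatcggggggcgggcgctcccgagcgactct
Mvd: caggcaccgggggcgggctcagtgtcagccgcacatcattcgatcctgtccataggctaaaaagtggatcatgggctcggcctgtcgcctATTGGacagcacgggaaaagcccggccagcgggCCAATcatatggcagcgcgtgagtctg
Pmvk: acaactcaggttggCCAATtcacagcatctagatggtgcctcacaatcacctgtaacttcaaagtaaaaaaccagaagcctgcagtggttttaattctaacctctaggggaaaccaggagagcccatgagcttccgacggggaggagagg
Tm7sf2: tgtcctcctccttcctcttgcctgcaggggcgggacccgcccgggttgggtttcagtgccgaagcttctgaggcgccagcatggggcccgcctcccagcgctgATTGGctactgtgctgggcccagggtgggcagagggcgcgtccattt
Nsdhl: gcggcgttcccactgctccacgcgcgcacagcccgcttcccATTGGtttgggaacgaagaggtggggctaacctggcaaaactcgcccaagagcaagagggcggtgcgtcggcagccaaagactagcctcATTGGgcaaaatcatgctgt
Npc2: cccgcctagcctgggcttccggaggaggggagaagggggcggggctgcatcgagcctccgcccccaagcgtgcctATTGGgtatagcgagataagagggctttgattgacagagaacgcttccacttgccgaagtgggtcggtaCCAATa

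Of the 27 members, 22 matched an entry of the promoter table, Sc4mol under its present symbol Msmo1, and each was searched on both strands over 300 bases, from 250 before to 50 after the start. For a gene with several promoters listed, only the one farthest upstream was used, among members and among all genes. CCAAT was found in 19 of the 22 (86.4%), and in 38.0% of the 27025 promoters of all genes. The 3 without it were Acat2, Dhcr7 and Scap. Dhcr7 has 3 promoters listed and Scap 2, and the result holds for the one used. At least 2 copies were found in 11 of the 22 and in 12.1% of all promoters, and Mvk held the most, with 5. TCACNCCAC was found in 1 of the 22 members, Hmgcs1, where it began 137 bases before the start, and in 1.22% of all promoters. Among the synthesis enzymes, CCAAT was found in 14 of 16 promoters, and among the sensing, uptake, transport and storage genes in 5 of 6. A match of letters is a description of these windows and not a binding site.

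The number of probes well above background was between 20235 and 24999 of 39429 on each array, no spot was saturated, and no pair of arrays held identical values. Eif6, the target of the shRNA, lay between 12.94 and 12.96 on the log2 scale on the 4 scramble polysomal arrays and between 11.81 and 12.00 on the 4 eIF6 shRNA polysomal arrays, a difference of -1.05 ± 0.08 (SE; limma, adjusted p = 1.45e-07). Its probes changed by -1.38, -1.26 and, for the dimmest, -0.52 in polysomal RNA. On subpolysomal arrays Eif6 differed by 0.02, with a 95% confidence interval of -0.15 to 0.18. Of 12 hepatocyte markers, 11 were on the array and 8 were well above background on all 16 arrays. Alb and Apoa1 were so on 7 arrays each and Fgb on none. Of 8 fibroblast or stellate markers, 7 were well above background on all arrays. Their summed linear signal was 137460 to 146818 on scramble and 62026 to 76071 on eIF6 shRNA subpolysomal arrays, and 171980 to 285843 on scramble and 28978 to 45570 on eIF6 shRNA polysomal arrays. The sum of the hepatocyte markers overlapped between the shRNAs in each fraction, at 291854 to 316866 and 305120 to 332492 on subpolysomal arrays and 315188 to 479027 and 354422 to 496041 on polysomal arrays. The endothelial and leukocyte markers that passed the filter summed to at most 3634 and 799, and Cdh5, Tek, Lyz2 and the fibroblast gene Lum were well above background on no array. The endothelial sums overlapped between the shRNAs in each fraction. The leukocyte sums did not, at 668 to 799 on scramble and 524 to 649 on eIF6 shRNA subpolysomal arrays. On polysomal arrays they were 295 to 343 and 197 to 228. The part of these differences in fibroblast or stellate and leukocyte markers in the results below was not tested.

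Between eIF6 shRNA and scramble cells, 3 of 27 members were higher and 1 lower in polysomal RNA (limma, adjusted p under 0.05), while 11.1% of all genes were higher and 10.7% lower. In subpolysomal RNA 4 of 27 were higher and 0 lower, while 11.8% of all genes were higher and 12.3% lower. Mvd, the decarboxylase that makes isopentenyl diphosphate, and Tm7sf2, a sterol reductase, rose in both fractions. Npc2, a sterol carrier of the lysosome, and Fdps, the farnesyl diphosphate synthase, rose in subpolysomal RNA. Nsdhl, a sterol dehydrogenase, rose and Pmvk, the phosphomevalonate kinase, fell in polysomal RNA. None of the 4 genes of sterol sensing passed the test in either fraction, a count too small to be read against these shares. All values are log2 signals after quantile normalization of all arrays, so each is relative to the other genes of its array, and a change is the mean of eIF6 shRNA minus the mean of scramble arrays.

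**Figure D1:**
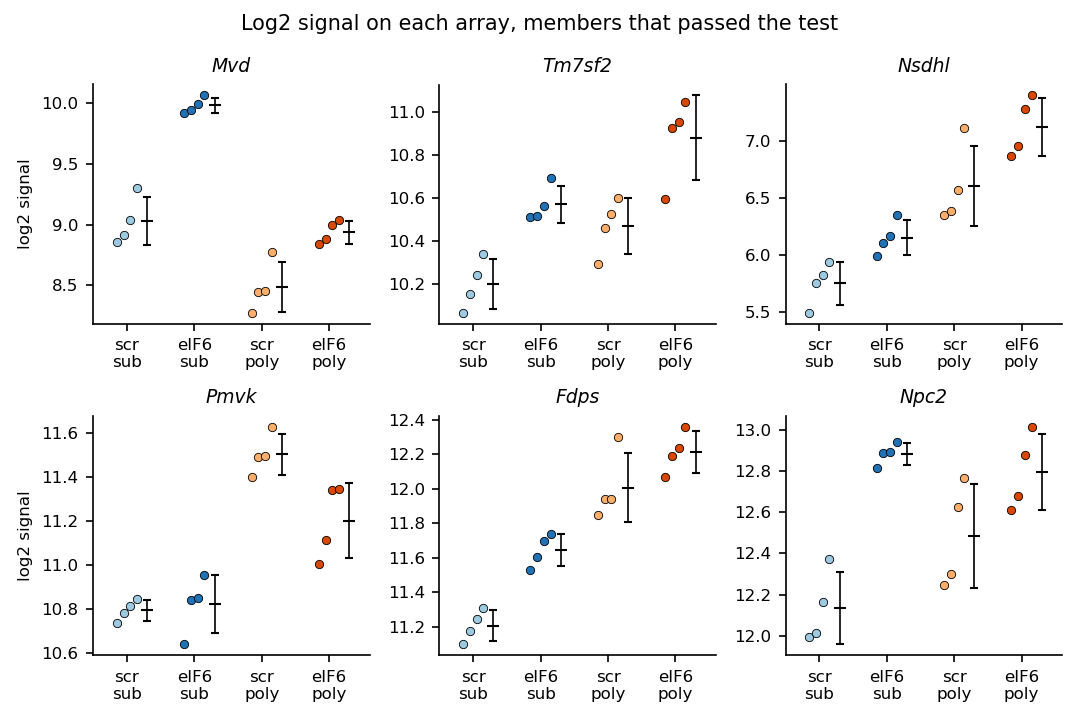
Log2 signal (vertical axis) of the 6 members that passed the test between the shRNAs in at least 1 fraction. Each point is 1 array, sorted by value within its group (scr, scramble; eIF6, eIF6 shRNA; sub, subpolysomal; poly, polysomal), and the bars beside them are the mean and SD of 4 arrays; vertical axes do not start at 0. Mvd on eIF6 shRNA subpolysomal arrays lies between 9.92 and 10.07, above all other arrays, and Pmvk on eIF6 shRNA polysomal arrays lies below the scramble ones.

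Mvd had the largest change among the members. Its subpolysomal signal was 8.86, 8.91, 9.03 and 9.30 on scramble arrays and 9.92, 9.95, 9.99 and 10.07 on eIF6 shRNA arrays. The groups did not overlap, and the difference was 0.96 ± 0.11 (SE, n = 4 arrays per group; limma, adjusted p = 2.27e-05), or 1.94-fold. In polysomal RNA it was 8.27, 8.44, 8.46 and 8.77 on scramble and 8.84, 8.88, 8.99 and 9.04 on eIF6 shRNA arrays. These did not overlap either, and the difference was 0.45 ± 0.11 (limma, adjusted p = 0.00959). Each of the 4 slides held 1 array of every group. Within slides, the subpolysomal difference of Mvd was between 0.69 and 1.15 and the polysomal one between 0.26 and 0.61. Mvd was measured by a single probe, at chr8:124957750-124957809 of mm9, the build of the array files.

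Tm7sf2, which reduces a double bond of the sterol ring after demethylation of lanosterol, was 10.07, 10.15, 10.24 and 10.34 on scramble and 10.51, 10.51, 10.56 and 10.69 on eIF6 shRNA subpolysomal arrays. The groups did not overlap, with a difference of 0.37 ± 0.10 (limma, adjusted p = 0.0181). Its polysomal signal was 10.29, 10.46, 10.52 and 10.60 on scramble and 10.59, 10.92, 10.95 and 11.05 on eIF6 shRNA arrays. The lowest eIF6 shRNA array lay just under the highest scramble array, and the difference was 0.41 ± 0.10 (limma, adjusted p = 0.0102). Within slides it was between 0.13 and 0.76 in polysomal and between 0.18 and 0.63 in subpolysomal RNA. Its 2 probes, at chr19:6062882-6062941 and chr19:6063541-6063600 (mm9), gave polysomal changes of 0.45 and 0.38. Lbr, a protein of the inner nuclear membrane with the same reductase activity, changed by -0.16 ± 0.14 in polysomal and by -0.07 ± 0.14 in subpolysomal RNA, and neither passed the test. Without replicate 1, 2 or 3 of every group, neither Mvd nor Tm7sf2 passed the test in polysomal RNA, with adjusted p of 0.0625 to 0.108 for Mvd and 0.0618 to 0.101 for Tm7sf2. In subpolysomal RNA, Tm7sf2 did not pass without replicate 1, 2 or 3 of every group (adjusted p of 0.0915 to 0.134), with the brighter probe alone (adjusted p = 0.0607), or without scramble subpolysomal replicate 1 (adjusted p = 0.0592) or eIF6 shRNA subpolysomal replicate 4 (adjusted p = 0.0532).

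Nsdhl, which acts with Sc4mol to remove methyl groups of lanosterol, was 6.35, 6.39, 6.57 and 7.11 on scramble and 6.86, 6.95, 7.27 and 7.40 on eIF6 shRNA polysomal arrays. The highest scramble array lay among the eIF6 shRNA arrays, and the difference was 0.52 ± 0.17 (limma, adjusted p = 0.0399). Within slides it was between -0.15 and 0.89. Its subpolysomal signal was 5.49, 5.75, 5.82 and 5.93 on scramble and 5.99, 6.10, 6.17 and 6.35 on eIF6 shRNA arrays. These groups did not overlap, but the difference of 0.40 ± 0.17 did not pass the test (limma, adjusted p = 0.101). The 2 probes of Nsdhl differed: the dimmer, at chrX:70203793-70203852 (mm9), changed by 0.76 in polysomal RNA and the brighter, at chrX:70202803-70202862, by 0.27. With the brighter probe alone, the polysomal change did not pass the test (adjusted p = 0.419). It also failed when any of 9 single arrays was left out (adjusted p of 0.0503 to 0.118): scramble polysomal replicates 1, 2 and 3, eIF6 shRNA polysomal replicates 3 and 4, scramble subpolysomal replicates 2 and 3, and eIF6 shRNA subpolysomal replicates 2 and 4.

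Pmvk, which adds the second phosphate to mevalonate, was the single member that fell. Its polysomal signal was 11.40, 11.49, 11.49 and 11.63 on scramble and 11.00, 11.11, 11.34 and 11.35 on eIF6 shRNA arrays. All scramble arrays lay above all eIF6 shRNA arrays, and the difference was -0.30 ± 0.09 (limma, adjusted p = 0.0327). In subpolysomal RNA the groups overlapped, at 10.73, 10.78, 10.81 and 10.85 on scramble and 10.64, 10.84, 10.85 and 10.95 on eIF6 shRNA arrays, with a difference of 0.03 ± 0.09. Within slides, the polysomal difference was between -0.49 and -0.06. Its probes, at chr3:89272739-89272798 and chr3:89272867-89272926 (mm9), gave polysomal changes of -0.32 and -0.29, and with the brighter probe alone Pmvk did not pass the test (adjusted p = 0.0666). Without either scramble polysomal replicate 1, 2 or 3, or eIF6 shRNA polysomal replicate 3 or 4, Pmvk did not pass the test (adjusted p of 0.0647 to 0.0918).

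Fdps, whose product feeds sterols, ubiquinone, dolichol and protein prenylation, was 11.10, 11.18, 11.24 and 11.31 on scramble and 11.53, 11.60, 11.70 and 11.74 on eIF6 shRNA subpolysomal arrays. The groups did not overlap, and the difference was 0.44 ± 0.10 (limma, adjusted p = 0.00588). Without replicate 1 of every group it was 0.37 and did not pass (adjusted p = 0.0854). In polysomal RNA it was 11.85, 11.94, 11.94 and 12.30 on scramble and 12.07, 12.19, 12.24 and 12.36 on eIF6 shRNA arrays. There the highest scramble array lay among the eIF6 shRNA arrays, and the difference of 0.21 ± 0.10 did not pass the test (limma, adjusted p = 0.182). Within slides, the subpolysomal difference was between 0.36 and 0.50. The probe of Fdps is at chr3:88897549-88897608 (mm9).

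Npc2, which hands cholesterol to the membrane protein NPC1 in the lysosome, was the single member outside synthesis that passed the test. Its subpolysomal signal was 11.99, 12.01, 12.16 and 12.37 on scramble and 12.81, 12.89, 12.89 and 12.94 on eIF6 shRNA arrays. The groups did not overlap, and the difference was 0.75 ± 0.13 (limma, adjusted p = 6.37e-04), or 1.68-fold. In polysomal RNA it was 12.25, 12.30, 12.63 and 12.77 on scramble and 12.61, 12.68, 12.88 and 13.01 on eIF6 shRNA arrays. These overlapped, and the difference of 0.31 ± 0.13 did not pass the test (limma, adjusted p = 0.108). Within slides, the subpolysomal difference was between 0.52 and 0.95. The probe of Npc2 is at chr12:86097947-86098006 (mm9).

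Over all members, the share that was higher in polysomal RNA was that of all genes, and the share that was higher in subpolysomal RNA was near it. At an unadjusted p under 0.05, 10 members differed in polysomal and 9 in subpolysomal RNA, beside 31.7% and 35.7% of all genes. The median change of the 27 members was 0.15 in polysomal RNA, where that of all genes was 0.02, and 0.16 in subpolysomal RNA, where that of all genes was 0.02. Positive changes were found for 18 members in polysomal and 19 in subpolysomal RNA, and for 52.1% and 52.6% of all genes. Both changes were positive for 15 members, both negative for 5 and of opposite sign for 7. Only Mvd and Tm7sf2 passed the test in both fractions. Across the 27 members, the polysomal and subpolysomal changes correlated with r = 0.51, and across all 19376 genes with r = 0.70. Genes are not independent replicates, and both changes come from the same normalization.

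**Figure D2:**
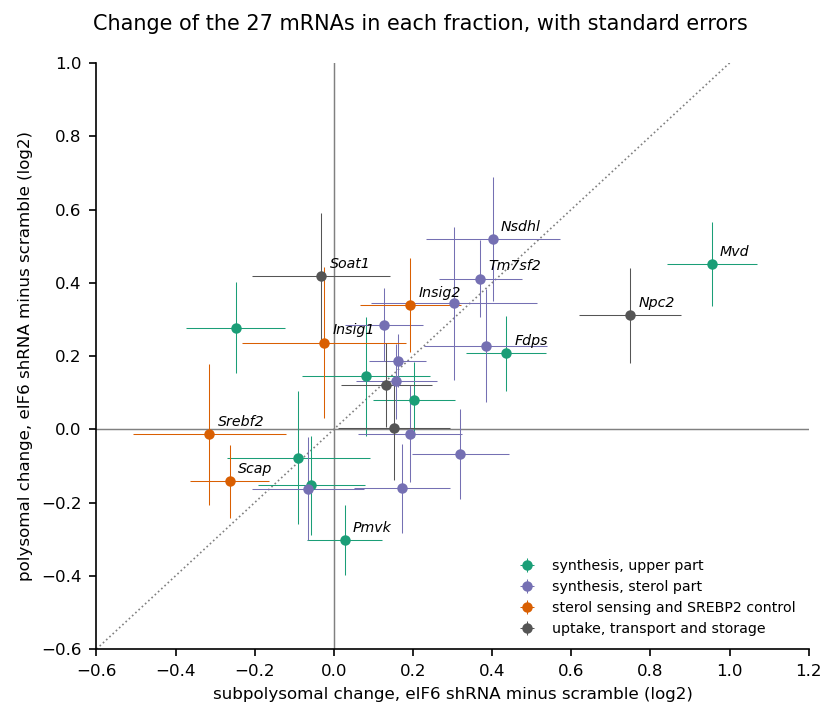
Change of each of the 27 members between eIF6 shRNA and scramble cells on the log2 scale, in subpolysomal RNA (horizontal axis) and polysomal RNA (vertical axis), with standard errors of the fit and colours for the roles. The dotted line marks equal change in both fractions. Mvd and Npc2 lie farthest to the right, at 0.96 and 0.75, and the unlabelled point at a subpolysomal change of -0.25 is Fdft1, whose mean includes a dim probe.

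By role, the upper part of synthesis, from Acat2 to squalene, had 8 members, of which 1 was higher (Mvd) and 1 lower (Pmvk) in polysomal RNA, and 2 were higher in subpolysomal RNA (Mvd and Fdps). The shares of all genes were 11.1% higher and 10.7% lower in polysomal RNA, and 11.8% and 12.3% in subpolysomal RNA. Each role is too small for its counts to be read against these shares. The median change of this part was 0.11 in polysomal and 0.05 in subpolysomal RNA. Of its members that did not pass the test, Acat2, the cytosolic thiolase of the initial step, changed by -0.08 and -0.09, Hmgcs1, which makes HMG-CoA, by 0.15 and 0.08, Mvk, the mevalonate kinase, by -0.15 and -0.06, and Idi1, the isomerase of isopentenyl diphosphate, by 0.08 and 0.20, in polysomal and subpolysomal RNA. Fdft1, the squalene synthase, changed by 0.28 and -0.25, but the dimmer of its 2 probes was well above background on 3 of 16 arrays, all of them eIF6 shRNA polysomal arrays. The brighter probe of Fdft1 changed by 0.11 in polysomal and 0.24 in subpolysomal RNA.

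The sterol part of synthesis had 11 members, of which 2 were higher in polysomal RNA (Tm7sf2 and Nsdhl) and 1 in subpolysomal RNA (Tm7sf2), and none was lower. Its median change was 0.19 in both fractions, and 10 of the 11 had a positive subpolysomal change, all but Lbr. Of all genes, 52.6% had a positive subpolysomal change, and 11 members are too few for these counts to be read against shares of all genes. Nearest to the threshold in polysomal RNA was Sqle, the squalene epoxidase. It was 11.14, 11.30, 11.32 and 11.33 on scramble and 11.34, 11.48, 11.65 and 11.77 on eIF6 shRNA polysomal arrays. These groups did not overlap, yet the difference of 0.29 ± 0.10 did not pass the test (limma, adjusted p = 0.0522). With scaling to the 75th percentile Sqle passed. In subpolysomal RNA, Ebp, the sterol isomerase, changed by 0.32 ± 0.12 (limma, adjusted p = 0.0745) and passed with the slide as a block, and Lss, which closes the rings of lanosterol, by 0.38 ± 0.15 (limma, adjusted p = 0.0878). Sc4mol, the methylsterol oxidase, changed by 0.19 in polysomal and 0.16 in subpolysomal RNA, and its subpolysomal arrays did not overlap between the shRNAs. Cyp51, the demethylase of lanosterol, changed by 0.34 and 0.30, Sc5d, a desaturase, by 0.13 and 0.16, Dhcr7, the reductase of the last step, by -0.01 and 0.19, and Hsd17b7, a ketosteroid reductase, by -0.16 and 0.17. None of these 5 passed the test in either fraction. Cyp51 was well above background on 3 of 4 scramble subpolysomal arrays and on all others.

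The 4 genes of sterol sensing gave no change that passed the test under the settings used throughout. Srebf2 was 8.75, 8.79, 8.81 and 8.87 on scramble and 8.54, 8.61, 8.89 and 9.11 on eIF6 shRNA polysomal arrays. In subpolysomal RNA it was 8.86, 8.96, 8.99 and 9.43 on scramble and 8.14, 8.74, 8.97 and 9.13 on eIF6 shRNA arrays. The groups overlapped in both fractions, and the eIF6 shRNA arrays spread more widely. The difference was -0.01 in polysomal RNA, with a 95% interval of -0.43 to 0.40, and -0.31 in subpolysomal RNA, with an interval of -0.73 to 0.10, so that the arrays do not show equal levels either. In polysomal RNA the probes of Srebf2 went opposite ways, at -0.12 for the brighter and 0.09 for the dimmer. In subpolysomal RNA they gave -0.36 and -0.27.

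Scap was 12.81, 12.94, 13.00 and 13.11 on scramble and 12.67, 12.82, 12.89 and 12.90 on eIF6 shRNA polysomal arrays. Its subpolysomal signal was 13.11, 13.25, 13.32 and 13.49 on scramble and 12.95, 12.97, 12.99 and 13.20 on eIF6 shRNA arrays. In subpolysomal RNA, 3 eIF6 shRNA arrays lay below all scramble arrays and the other among them. The difference was -0.26 ± 0.10 in subpolysomal RNA (limma, adjusted p = 0.0699) and -0.14 ± 0.10 in polysomal RNA (limma, adjusted p = 0.38). Scap passed in subpolysomal RNA with normexp background (limma, adjusted p = 0.0419) and with array weights (limma, adjusted p = 0.0109).

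Insig1, itself a target of SREBP2, was 6.59, 7.05, 7.45 and 7.56 on scramble and 6.96, 7.50, 7.56 and 7.58 on eIF6 shRNA polysomal arrays. On subpolysomal arrays it was 6.76, 6.85, 7.00 and 7.14 on scramble and 6.59, 6.79, 7.09 and 7.18 on eIF6 shRNA arrays. Its groups overlapped in both fractions, and its change was 0.24 ± 0.21 in polysomal and -0.02 ± 0.21 in subpolysomal RNA. Insig2 was 9.66, 10.03, 10.18 and 10.25 on scramble and 10.10, 10.37, 10.42 and 10.59 on eIF6 shRNA polysomal arrays. On subpolysomal arrays it was 10.45, 10.49, 10.54 and 10.61 on scramble and 10.59, 10.69, 10.73 and 10.85 on eIF6 shRNA arrays. The upper arrays of the scramble groups overlapped the lower eIF6 shRNA arrays, with a difference of 0.34 ± 0.13 in polysomal RNA (limma, adjusted p = 0.0767) and 0.19 ± 0.13 in subpolysomal RNA (limma, adjusted p = 0.309). With the slide as a block in the fit, Insig2 passed the test in polysomal RNA (limma, adjusted p = 0.0467). Within slides, the polysomal change was between 0.06 and 0.71 for Insig2 and between -0.09 and 0.98 for Insig1.

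**Figure D3:**
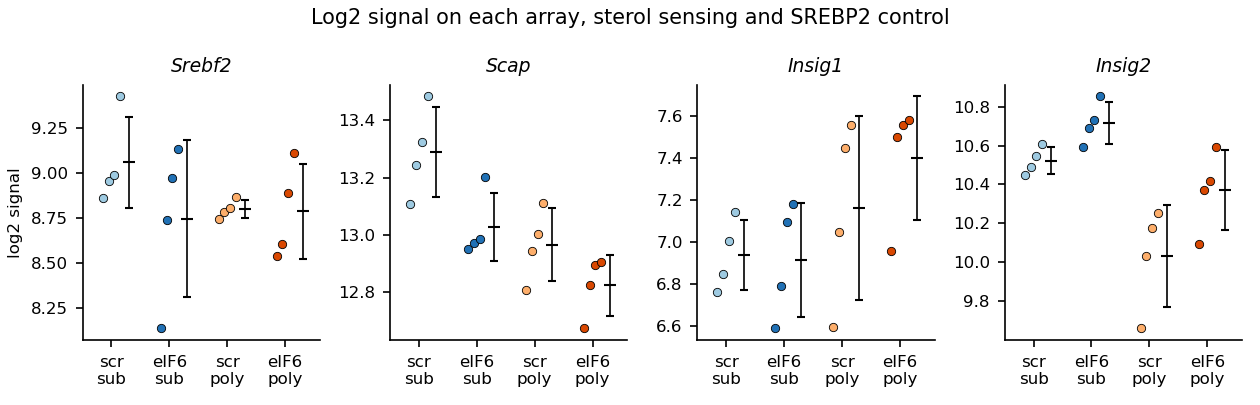
Log2 signal (vertical axis) of Srebf2, Scap, Insig1 and Insig2. Each point is 1 array, sorted by value within its group (scr, scramble; eIF6, eIF6 shRNA; sub, subpolysomal; poly, polysomal), with the mean and SD of 4 arrays beside them; vertical axes do not start at 0. Srebf2 lies between 8.75 and 8.87 on the scramble polysomal arrays, and in every gene the groups of a fraction overlap.

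Of the 4 genes of uptake, transport and storage, none passed the test in polysomal RNA, and Npc2 alone did in subpolysomal RNA. These counts are also too small to be read against the shares of all genes. Their median change was 0.22 in polysomal and 0.14 in subpolysomal RNA. Soat1, which stores cholesterol as an ester, was 6.69, 6.89, 6.95 and 7.41 on scramble and 7.08, 7.16, 7.53 and 7.83 on eIF6 shRNA polysomal arrays. The groups overlapped, and the change was 0.42 ± 0.17 in polysomal RNA (limma, adjusted p = 0.111) and -0.03 ± 0.17 in subpolysomal RNA. Npc1, the membrane protein that receives cholesterol from NPC2, changed by 0.00 ± 0.14 in polysomal and 0.15 ± 0.14 in subpolysomal RNA. Stard4, a carrier of cholesterol in the cytosol, changed by 0.12 and 0.13. The 2 probes of Stard4 went opposite ways in subpolysomal RNA, at -0.20 and 0.47.

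Of the 19 synthesis enzymes, 3 were higher and 1 lower in polysomal RNA, and 3 higher and 0 lower in subpolysomal RNA. Of the 8 other members, 0 passed the test in polysomal RNA and 1 was higher in subpolysomal RNA. Over all genes, 11.1% were higher and 10.7% lower in polysomal RNA, and 11.8% and 12.3% in subpolysomal RNA. The median polysomal change was 0.15 for the 19 and 0.18 for the 8, and the median subpolysomal change was 0.17 and 0.05. The 2 sets were not tested against each other.

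The change in translational efficiency is the change in polysomal RNA minus the change in subpolysomal RNA. No member passed the test (0 of 27; limma), and of all genes 0.403% were higher and 1.1% lower. At such shares, 0 of 27 is not read as a result about the members. At an unadjusted p under 0.05, 5 members differed, beside 12.5% of all genes. These were Mvd at -0.50 ± 0.16 (adjusted p = 0.167), Npc2 at -0.44 ± 0.18 (adjusted p = 0.329), Ebp at -0.39 ± 0.17 (adjusted p = 0.378), Pmvk at -0.33 ± 0.13 (adjusted p = 0.308) and Fdft1 at 0.53 ± 0.18 (adjusted p = 0.194). For Fdft1 the brighter probe gave -0.13, and the value of 0.53 rests on the dim probe. The median was -0.01 over the 27 members, -0.10 over the synthesis enzymes and 0.13 over the other 8, and that of all genes was 0.02. All 4 sensing genes had positive values, from 0.12 for Scap to 0.30 for Srebf2, with standard errors of 0.14 to 0.29. Of all genes, 52.5% had positive values, and 4 genes are too few to be read against this share. The 95% interval of Srebf2 was -0.28 to 0.88 and that of Hmgcs1 -0.43 to 0.56, so these arrays do not exclude changes of that size in either direction. The test passed no member under any of the other settings run.

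More members passed the test in gradient position, the polysomal minus the subpolysomal signal within a shRNA, than in any comparison between the shRNAs. In scramble cells 12 of 27 were higher and 6 lower in polysomal RNA (limma, adjusted p under 0.05), while 31.7% of all genes were higher and 28.4% lower. In eIF6 shRNA cells 10 were higher and 7 lower, while 32.1% of all genes were higher and 28.7% lower. The test passed 15 members in both shRNAs and 7 in neither, and 23 lay on the same side of 0 in both. The positions in scramble and eIF6 shRNA cells correlated with r = 0.92 across the 27 members, which were measured by the same probes. These counts and this correlation are not given over all genes, so they are not read as a trait of the members. The median position of the members was 0.22 in scramble and 0.05 in eIF6 shRNA cells, where that of all genes was 0.03 in each.

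Ebp lay farthest towards polysomes. It was 13.92, 14.03, 14.21 and 14.33 on scramble subpolysomal and 16.11, 16.23, 16.25 and 16.32 on scramble polysomal arrays, and 14.31, 14.35, 14.52 and 14.59 on eIF6 shRNA subpolysomal and 15.82, 16.17, 16.32 and 16.33 on eIF6 shRNA polysomal arrays. Every polysomal array lay above every subpolysomal array, by 2.11 ± 0.12 in scramble cells (limma, adjusted p = 3.00e-09) and 1.72 ± 0.12 in eIF6 shRNA cells (limma, adjusted p = 2.94e-08). Cyp51 followed, at 1.33 ± 0.21 and 1.37 ± 0.21, then Stard4 at 1.26 ± 0.11 and 1.24 ± 0.11, and Nsdhl at 0.85 ± 0.17 and 0.97 ± 0.17 in scramble and eIF6 shRNA cells. Fdps was at 0.80 and 0.57, Hsd17b7 at 0.73 and 0.39, and Pmvk at 0.71 and 0.38. In scramble cells, neighbours in this order differed by less than their standard errors from Cyp51 to Stard4 and from Nsdhl to Pmvk. In eIF6 shRNA cells this was not so, where Nsdhl and Fdps lay 0.97 and 0.57 above 0. These 7 passed the test in both shRNAs, with adjusted p in scramble cells of at most 4.89e-04. The dimmest of the 3 probes of Hsd17b7 was well above background on 1 of 4 subpolysomal arrays of each shRNA, and the 2 probes of Stard4 gave 0.72 and 1.79 in scramble cells. The order below Ebp depended on the scaling. With arrays scaled to their 75th percentile, Ebp stayed highest in scramble cells, at 1.70. Cyp51, whose subpolysomal signal is dim, lay at 0.65 there, below Stard4 at 0.90, Fdps at 0.84 and Pmvk at 0.72. Nsdhl at 0.35 and Hsd17b7 at 0.28 did not pass the test under that scaling (limma, adjusted p = 0.0712 and 0.0545).

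Mvd lay on the subpolysomal side, at -0.54 ± 0.11 in scramble cells (limma, adjusted p = 8.23e-04) and -1.04 ± 0.11 in eIF6 shRNA cells (limma, adjusted p = 1.84e-06), with no overlap between fractions in either. Acat2 at -0.55 and -0.54, Lbr at -0.53 and -0.63, Insig2 at -0.49 and -0.35 and Hmgcs1 at -0.48 and -0.42 also passed the test on that side in both shRNAs, though over 32 other settings Hmgcs1 lost the call in 7 and 11. The upper part of synthesis was thus spread over both sides, with 4 members higher and 3 lower in polysomes of scramble cells. In the sterol part 6 were higher and 1 lower. Of the sensing genes, none was higher and 2 were lower in scramble cells: Scap, at -0.32 ± 0.10 (limma, adjusted p = 0.0112), and Insig2. Over all genes, 31.7% were higher and 28.4% lower in scramble cells. The parts are too small for their counts to be read against these shares or against each other. In eIF6 shRNA cells Scap was at -0.20 ± 0.10 and did not pass the test (limma, adjusted p = 0.0911). Srebf2 was at -0.26 ± 0.19 and 0.04 ± 0.19, and Insig1 at 0.22 ± 0.21 and 0.49 ± 0.21, and neither passed the test in either shRNA. The brighter probe of Srebf2 gave -0.07 and the dimmer 0.15 in eIF6 shRNA cells.

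Of the remaining members, Fdft1 passed the test in both shRNAs, at 0.38 and 0.90, and is counted above. Its dim probe passed the filter through eIF6 shRNA polysomal arrays alone, where it is highest, and the value of 0.90 rests on that probe. The brighter probe gave 0.35 (limma, adjusted p = 0.0121) in scramble and 0.22 (limma, adjusted p = 0.0981) in eIF6 shRNA cells, so that the latter call is not supported by it. Sc5d at 0.29 and 0.26 and Tm7sf2 at 0.27 and 0.31 passed in both, but over 32 other settings Sc5d lost the call in 5 and 13 and Tm7sf2 in 13 and 4. Idi1 passed in scramble cells alone, at 0.26 and 0.14, and so did Npc2, at 0.35 and -0.09. Lss, at -0.23 and -0.39, and Npc1, at -0.24 and -0.39, passed in eIF6 shRNA cells alone. Of these calls, that of Idi1 was lost in 12 of 32 settings, Npc2 in 7, Lss in 14 and Npc1 in 8. Whether these positions differ between the shRNAs is the test of translational efficiency given above, which none of them passed. Mvk, Sqle, Sc4mol, Dhcr7 and Soat1 passed in neither, with values between -0.10 and 0.37.

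**Figure D4:**
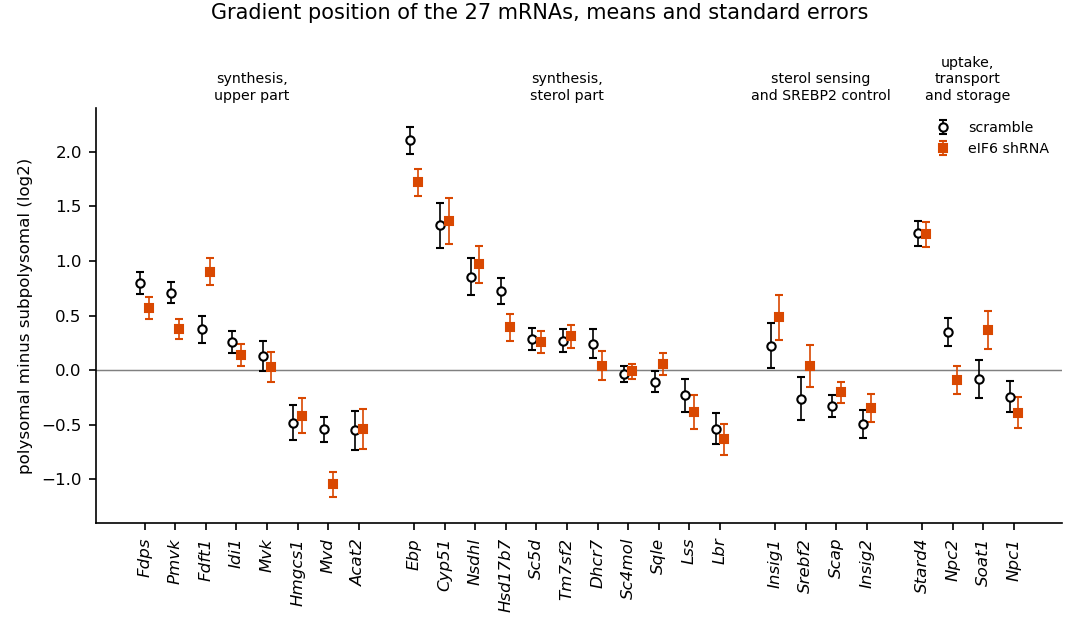
Gradient position of the 27 members, the polysomal minus the subpolysomal mean on the log2 scale (vertical axis), in scramble cells (open circles) and eIF6 shRNA cells (filled squares), with standard errors of the fit from 4 arrays per group. Members are grouped by role and ordered by the value in scramble cells. Ebp stands highest, at 2.11 and 1.72, and Mvd in eIF6 shRNA cells lowest, at -1.04; Fdft1 includes a dim probe.

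The scale of a gradient position depends on the normalization. With arrays scaled to their 75th percentile, the median of all genes moved to -0.34 in scramble and -0.37 in eIF6 shRNA cells, and the members that passed were 6 higher and 8 lower in scramble cells and 7 higher and 7 lower in eIF6 shRNA cells. With arrays scaled to the spike-in probes, the median of all genes moved to 1.52 and 1.31, all 27 members were higher in polysomal RNA in both shRNAs, and 26 and 22 passed. Both scalings shift every gene of an array equally, so distances from the median of all genes are the same under both by construction. In scramble cells, Ebp lay 2.04 and Stard4 1.23 above this median, and Mvd lay at -0.36 and Acat2 at -0.75 from it. The scaling to spike-in probes also moved the median change of all genes between the shRNAs to -0.48 in polysomal and -0.24 in subpolysomal RNA, and no member passed the test. Relative to the median of all genes, the polysomal change under it was 0.46 for Mvd, 0.44 for Tm7sf2 and -0.28 for Pmvk. Shares of all genes that passed under these scalings are not given here.

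Of the genes that act beside the members, 38 were listed and 34 tested. Among 12 that process SREBP, turn over INSIG or act with SREBP2 at promoters, such as the proteases Mbtps1 and Mbtps2 and the NF-Y subunits Nfya, Nfyb and Nfyc, none passed the test between the shRNAs in either fraction. Among 5 tested genes of LXR and sterol efflux, 2 were lower in polysomal RNA: Abca1, which exports cholesterol, at -1.70 ± 0.30 (limma, adjusted p = 7.40e-04), and Mylip, a ubiquitin ligase, at -0.82 ± 0.15 (limma, adjusted p = 0.00113). Mylip was also lower in subpolysomal RNA, at -0.80. The probe of Abca1 was not well above background on all arrays. Among 8 genes of lysosomal and cytosolic transport, Soat2 was higher in both fractions, at 0.40 and 0.36, and Stard3, at 0.39, and Stard5, at 0.53, in subpolysomal RNA. Among 9 tested genes of the isoprenoid branches and ketone metabolism, Pdss1 was lower in both fractions, at -0.49 and -0.40, and Dhdds, at 0.32, was higher in subpolysomal RNA. In all, 1 of the 34 was higher and 3 lower in polysomal RNA, and 4 were higher and 2 lower in subpolysomal RNA, with medians of 0.029 and -0.0028. Over all genes, 11.1% were higher and 10.7% lower in polysomal RNA, and 11.8% and 12.3% in subpolysomal RNA. None of the 34 passed the test of translational efficiency, beside 0.403% of all genes higher and 1.1% lower.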

How the data were processed

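RNA of 16 samples was measured on one-colour Agilent mouse arrays, 4 per group, and samples were grouped by their labels. The authors deposited, for each array, background-corrected spot intensities that are not normalized between arrays, and a table of quantile normalized log2 values, used here as an alternative. Per the labels, Agilent Feature Extraction 10.7.7.1 made the intensities, whereas the file headers name 10.7.3.1 and mm9. Intensities were read with Python 3.11.15, and models were fitted in R 4.3.3 with limma 3.58.1. Control spots and outlier spots were left out, which left 45 values missing, and repeated spots were averaged. The filter kept 25271 probes (64.1%), each detected above background on 2 or more arrays of some group. Of the 39 probes of the members, 37 were kept. Quantile normalization of the log2 intensities ran across the 16 arrays on these probes, and probes sharing a gene name were averaged. Linear models had 4 group means, Benjamini-Hochberg adjustment over all 19376 genes and a threshold of 0.05. The number of arrays limits the precision. The fits were also tested on simulated data with 200 changed genes. Of simulated polysomal changes of 0.75, the test found 55% in polysomal RNA and 28% in translational efficiency. Of changes of 1.5 it found 93% and 85%. Alternatives were other scalings, backgrounds, filters, probe rules, blocks, weights and left-out arrays. Every member is named, with array values for those that passed the test between the shRNAs and for the sensing genes. Of the genes listed beside the members, 1 is not reported here. The members, lists and tests were chosen with earlier results of these data known. Promoters are from RefSeq (GRCm38.p6). Figures were drawn with matplotlib 3.10.9.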

Additional observations from a re-analysis of the deposited data

Results flagged for a closer look

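In 8 of the 108 groups of 4 arrays formed by the 27 members, a single array stood apart from the other 3 by Dixon's test. Chance flags about 1 in 20 groups. Each value is a log2 signal. Acat2 was lowest on scramble polysomal replicate 4, at 4.96, where the nearest array was at 5.67. Lbr was highest on the same array, at 11.15, where the nearest was at 10.57. Mvk was lowest on eIF6 shRNA polysomal replicate 4, at 10.88, where the nearest was at 11.43. Insig1 was lowest on that array too, at 6.96, where the nearest was at 7.50. Sqle was lowest on scramble polysomal replicate 1, at 11.14, where the nearest was at 11.30. Hmgcs1 was lowest on scramble subpolysomal replicate 4, at 11.56, where the nearest was at 11.98. Scap was highest on eIF6 shRNA subpolysomal replicate 4, at 13.20, where the nearest was at 12.99. Fdft1 was highest on eIF6 shRNA subpolysomal replicate 2, at 6.20, where the nearest was at 5.78, and its mean includes the probe that was not well above background on these arrays.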

How the results depend on the processing

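Shares of all genes that passed under each alternative are not given here, so the counts below are not read as results about the members. The count of members that passed the test was 4 in polysomal and 4 in subpolysomal RNA. It was 0 and 0 with scaling to spike-in probes, 8 and 9 with array weights, and 8 in subpolysomal RNA with normexp background. With each replicate number left out it was 0 to 6 and 2 to 7, with replicates 1, 2 and 3 giving 0 in polysomal RNA. With single arrays left out, an alternative chosen after seeing the data, it was 2 to 7 and 3 to 6. Without scramble polysomal replicate 1 or 2 or eIF6 shRNA polysomal replicate 3 it was 2 in polysomal RNA (Mvd and Tm7sf2), and without scramble polysomal replicate 4 it was 7. Members that passed when a single array was left out, but not with all arrays, were Insig2 and Npc2 (without scramble polysomal replicate 3), Fdps, Sc4mol and Soat1 (without scramble polysomal replicate 4), Sqle and Sc4mol (without eIF6 shRNA polysomal replicate 2) and Insig2 (without eIF6 shRNA polysomal replicate 4) in polysomal RNA, and Ebp, Lss, Nsdhl, Fdft1 and Scap (without 1 of 6 arrays) in subpolysomal RNA. No member passed in translational efficiency under any setting. In gradient position, 18 passed in scramble and 17 in eIF6 shRNA cells, 10 to 19 and 10 to 17 with a replicate number left out, and 14 to 19 and 11 to 19 with single arrays left out. Without eIF6 shRNA polysomal replicate 2 it was 11 in eIF6 shRNA cells. Normalizing the fractions separately was not run for gradient position.

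Nsdhl in polysomal RNA kept its call under 16 of 33 settings, Pmvk under 23, and Mvd and Tm7sf2 under 29 each. In subpolysomal RNA, Mvd and Npc2 kept theirs under 32 of 33, Fdps under 31 and Tm7sf2 under 26. Over all calls and settings, 1196 of 1382 values kept direction and call, 167 lost the call and 19 reversed. With scaling to spike-in probes, Mvd reversed to -0.025 and Tm7sf2 to -0.043 in polysomal RNA. In gradient position under that scaling, which moves all genes, Acat2 became 0.77, Hmgcs1 1.44, Mvd 1.17, Lbr 1.34, Scap 1.63 and Insig2 1.32 in scramble cells, and Acat2 0.51, Hmgcs1 1.31, Mvd 0.50, Lss 0.98, Lbr 1.04, Insig2 1.30 and Npc1 1.06 in eIF6 shRNA cells. With no filter, which adds a dim probe, Lbr became 0.24 in scramble and 0.053 in eIF6 shRNA cells and Hmgcs1 0.088 in eIF6 shRNA cells. With scaling to the 75th percentile, Hsd17b7 became -0.086 in eIF6 shRNA cells. A probe near background limits Fdft1, Hsd17b7, Nsdhl and Cyp51.

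With the replicate block, 5 members passed in polysomal and 6 in subpolysomal RNA, 0 in translational efficiency, and 17 and 15 in gradient position. Arrays of the 2 fractions with the same shRNA and replicate number deviated from their group means with correlations of -0.16 to 0.03, so the numbers were not taken to pair the samples. Over all groups, arrays of the same number gave -0.21 to 0.41. Arrays of different groups had a median correlation of 0.13 on the same slide and -0.04 on different slides. The main fit has no term for the slide. With the slide as a block, 5 members passed in polysomal RNA, with Insig2 added, and 5 in subpolysomal RNA, with Ebp added.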
